A study of Mus musculus with 6 samples.

Results

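The DNA replication machinery was followed through 39 genes, listed by name from the origin recognition complex to the DNA ligase that joins Okazaki fragments, out of 21938 protein-coding genes of the mouse annotation GENCODE M21. Their promoters were compared with 11106 regions enriched for H3K56ac, the acetylated form of a lysine in the globular domain of histone H3, in V6.5 mouse embryonic stem cells (mESCs) grown on feeder cells. The cells had been infected with lentivirus carrying either a scrambled shRNA (Scramble) or 1 shRNA against *Sirt6* (*Sirt6* KD), whose product is a deacetylase of this lysine. ChIP-seq gave 2 H3K56ac libraries and 1 input DNA library for each condition. The peaks of all 4 H3K56ac libraries had been merged into 1 set of positions on mm10 without heights, so there was no value per library, no replicate error and no comparison between Scramble and *Sirt6* KD. All 39 symbols matched 1 gene each, on 12 chromosomes. As a check of the cell type, 8 of 8 stem cell marker genes, among them *Pou5f1* and *Nanog*, were reached by a peak within 1 kb of a transcription start site (TSS), as were 0 of 8 fibroblast genes that would mark feeder cells.

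Before S phase, the origin recognition complex, CDC6 and CDT1 load the ring of MCM proteins onto origins of replication as an inactive helicase. CDC45 and the GINS complex then join the ring to form the active helicase, the primase and DNA polymerases copy the strands, and PCNA, a sliding clamp loaded by replication factor C (RFC), holds the polymerases on the template. RPA covers the exposed single strands, and FEN1 and LIG1 finish the lagging strand. Embryonic stem cells have a short G1 phase and spend much of their cycle in S phase, and many of these genes are known targets of E2F transcription factors, which drive entry into S phase.

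In the merged set of both conditions, most of the replication genes carried H3K56ac at their promoter. The paper reports more H3K56ac peaks in *Sirt6* KD than in Scramble mESCs, so a peak of this set need not be present in Scramble cells. A promoter peak, defined as a peak whose midpoint lay within 1 kb of any annotated TSS of the gene, was found for 35 of 39 members (89.7%). The same held for 7430 of the 21938 protein-coding genes (33.9%), a background that includes the members. The 35 peaks were all different, so no peak was counted for more than 1 member. At least 1 peak base within 1 kb of a TSS was found for 36 members, against 35.7% of all genes, and a TSS lay inside a peak for 29 members, against 25.0% of all genes. Since the members are a fixed list and the set has no replicates, these counts are given as a description without a test.

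Promoters rich in CpG dinucleotides carry this mark more often, and replication genes are mostly of that kind. An observed to expected CpG ratio above 0.6 in the 500 bp before and after a gene's 5′ end was found for 31 members, against 45.9% of all genes. The exceptions were *Orc4*, *Mcm2*, *Mcm7*, *Mcm10*, *Gins1*, *Prim1*, *Rfc2* and *Lig1*, and all 8 had a promoter peak. Over all genes, 5806 of the 7430 with a promoter peak were CpG-rich. The ratios of *Mcm2*, *Mcm10* and *Prim1* were 0.596, 0.598 and 0.590, just below the limit. When the window was placed on the start of the principal transcript, 34 members were CpG-rich, against 47.5% of all genes. *Mcm10*, *Gins1* and *Rfc2* then passed the limit, with ratios of 0.614, 0.722 and 0.659. Among CpG-rich promoters, 27 of 31 members had a promoter peak (87.1%), compared with 57.6% of all 10078 genes of that class. The class was divided further by whether the promoter was shared, that is, whether a gene on the opposite strand started within 1 kb upstream and was transcribed away from it. Of the CpG-rich shared promoters, 14 of 16 members had a promoter peak, compared with 71.8% of 2962 genes. Of the CpG-rich promoters that were not shared, 13 of 15 members had one, compared with 51.7% of 7116 genes. The difference between members and the background was thus smallest for shared promoters.

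**Figure D1:**
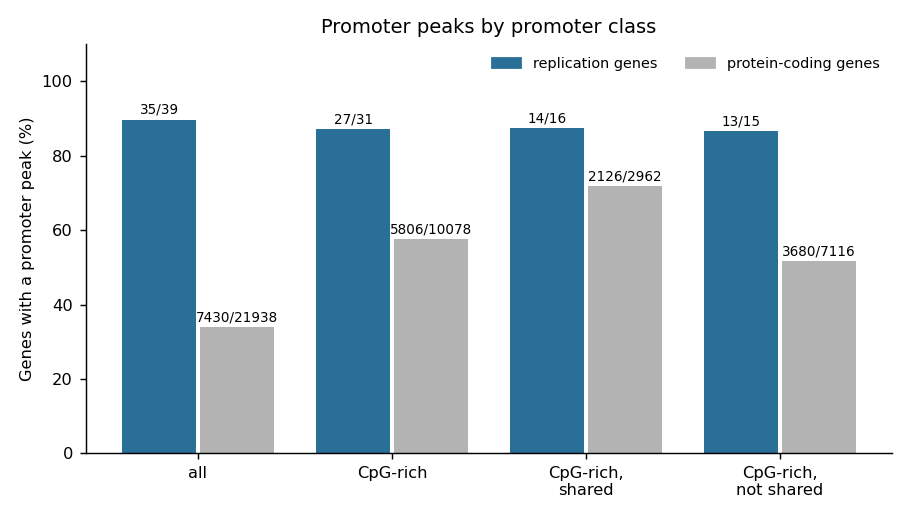
Share of genes with an H3K56ac promoter peak (y axis, percent) for replication genes (blue) and all protein-coding genes (grey) in each promoter class, with the counts above the bars. The blue bars stand between 86.7% and 89.7% in every class, whereas the grey bars range from 33.9% to 71.8%.

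The origin recognition complex, whose subunits ORC1 to ORC6 mark the origins, had a promoter peak at every gene. The peaks were 2393 bp wide at *Orc1*, 1511 bp at *Orc2*, 2445 bp at *Orc3*, 2312 bp at *Orc4*, 1916 bp at *Orc5* and 2685 bp at *Orc6*. All 6 were wider than the median of 1274 bp for all genes with a promoter peak. The *Orc6* peak (chr8:85298578-85301262) was nearly centred on a TSS, with its midpoint 3 bp away in a non-coding part of an exon, and reached 1345 bp upstream and 1339 bp downstream. The *Orc2* peak (chr1:58503229-58504739) lay wholly in the gene, its midpoint intronic and 941 bp past the nearest TSS and its nearest base 186 bp away. The MCM loading factor *Cdc6* had a 1231-bp peak (chr11:98907769-98908999) centred in an intron, 233 bp past the TSS.

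Of the genes for the helicase ring, *Mcm2*, *Mcm3*, *Mcm5*, *Mcm6* and *Mcm7* had a promoter peak and *Mcm4* did not. The widths spanned from 1123 bp at *Mcm2* over 2151 bp at *Mcm3*, 2450 bp at *Mcm5* and 3072 bp at *Mcm6* to 3840 bp at *Mcm7*. The *Mcm7* peak (chr5:138169500-138173339) was the widest promoter peak of all members and ranked 321 of the 11106 peaks by width. Its midpoint lay 153 bp upstream of the nearest TSS but 1003 bp downstream of the start of the principal transcript. *Mcm6* and *Mcm7* were the only 2 of the 35 members whose promoter peak reached 3 kb, which equals 5.71% and lies near the 7.60% of all genes with a promoter peak. The *Mcm3* peak (chr1:20818231-20820381) was displaced into the gene, with an intronic midpoint 954 bp downstream, and only 121 bp of it lay upstream of that TSS. *Mcm10* and *Cdc45*, which act when the loaded ring is turned into a moving helicase, had peaks of 1540 and 2591 bp. The *Cdc45* midpoint lay 200 bp upstream of the TSS, towards the neighbouring gene *Ufd1*.

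The GINS complex, the other partner of the active helicase, had a promoter peak at all 4 genes. The widths were 647 bp at *Gins1*, 670 bp at *Gins2*, 1022 bp at *Gins3* and 1047 bp at *Gins4*, with a median of 846 bp. All 4 lay below the median of all genes, *Gins1* and *Gins2* also below the lower quartile of 738 bp, and *Gins3* and *Gins4* within the quartiles. The origin recognition genes had a median of 2352 bp, and all 6 of their promoters were shared with a neighbouring gene, compared with 2 of 4 here. Among all CpG-rich promoters, peaks at shared promoters had the larger median width. Within GINS the order was the reverse, since the shared promoters of *Gins1*, taken at its 5′ end, and *Gins2* had the narrower peaks. Whether sharing relates to the widths of the complexes was not tested. The *Gins4* peak (chr8:23236556-23237602) began 57 bp downstream of the only annotated TSS. *Gins1* had an additional 505-bp intronic peak (chr2:150909892-150910396), whose midpoint lay 527 bp downstream of another TSS of the gene. The same midpoint was the nearest to the start of the principal transcript, 550 bp downstream of it. The 647-bp peak counted for *Gins1* lay instead at the 5′ end of the gene, near the start of the neighbouring gene *Abhd12*. No test between the complexes was made, because the genes of a complex are not replicates.

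The 8 genes for polymerases and primase all had a promoter peak, with widths from 192 to 2085 bp. At the wide end stood *Pola2*, the accessory subunit of the polymerase that makes primers, with 2085 bp, followed by *Pold3* with 1776 bp and *Pole* with 1711 bp. In the middle were *Pold1*, the catalytic subunit of the lagging strand polymerase, with 1418 bp, *Pole2* with 826 bp and the primase gene *Prim1* with 754 bp. The other primase gene, *Prim2*, had 449 bp and *Pold2* only 192 bp. The *Pold2* peak (chr11:5878509-5878700) was the narrowest of all members, ranked 10994 of 11106, and ended 217 bp upstream of the nearest TSS without touching the gene. The *Prim2* peak (chr1:33669989-33670437) likewise lay upstream of the gene, 194 bp from it at the nearest base. When peaks below 500 bp were left out, *Pold2*, *Prim2* and *Rpa3* lost their promoter peak.

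RFC is the clamp loader, and a promoter peak was present at *Rfc1*, *Rfc2*, *Rfc4* and *Rfc5* but not at *Rfc3*. The widths were 1247 bp at *Rfc1*, 1161 bp at *Rfc2*, 2650 bp at *Rfc4* and 1663 bp at *Rfc5*. The *Rfc4* midpoint (chr16:23126451-23129100) lay 38 bp upstream of a TSS, while that of *Rfc5* (chr5:117387302-117388964) lay in an intron 889 bp downstream, with the nearest base 58 bp from the TSS. The single-strand binding genes *Rpa1* and *Rpa2* had peaks of 2119 and 2083 bp with midpoints 123 and 31 bp downstream. The gene for the smallest RPA subunit, *Rpa3*, had a peak of 424 bp in an intron, 291 bp downstream. For the maturation of Okazaki fragments, the flap nuclease gene *Fen1* had a 2046-bp peak with its midpoint 72 bp downstream. The ligase gene *Lig1* had a 952-bp intronic peak (chr7:13277744-13278695), placed 607 bp upstream of the nearest TSS but 906 bp downstream of the start of the principal transcript.

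**Figure D2:**
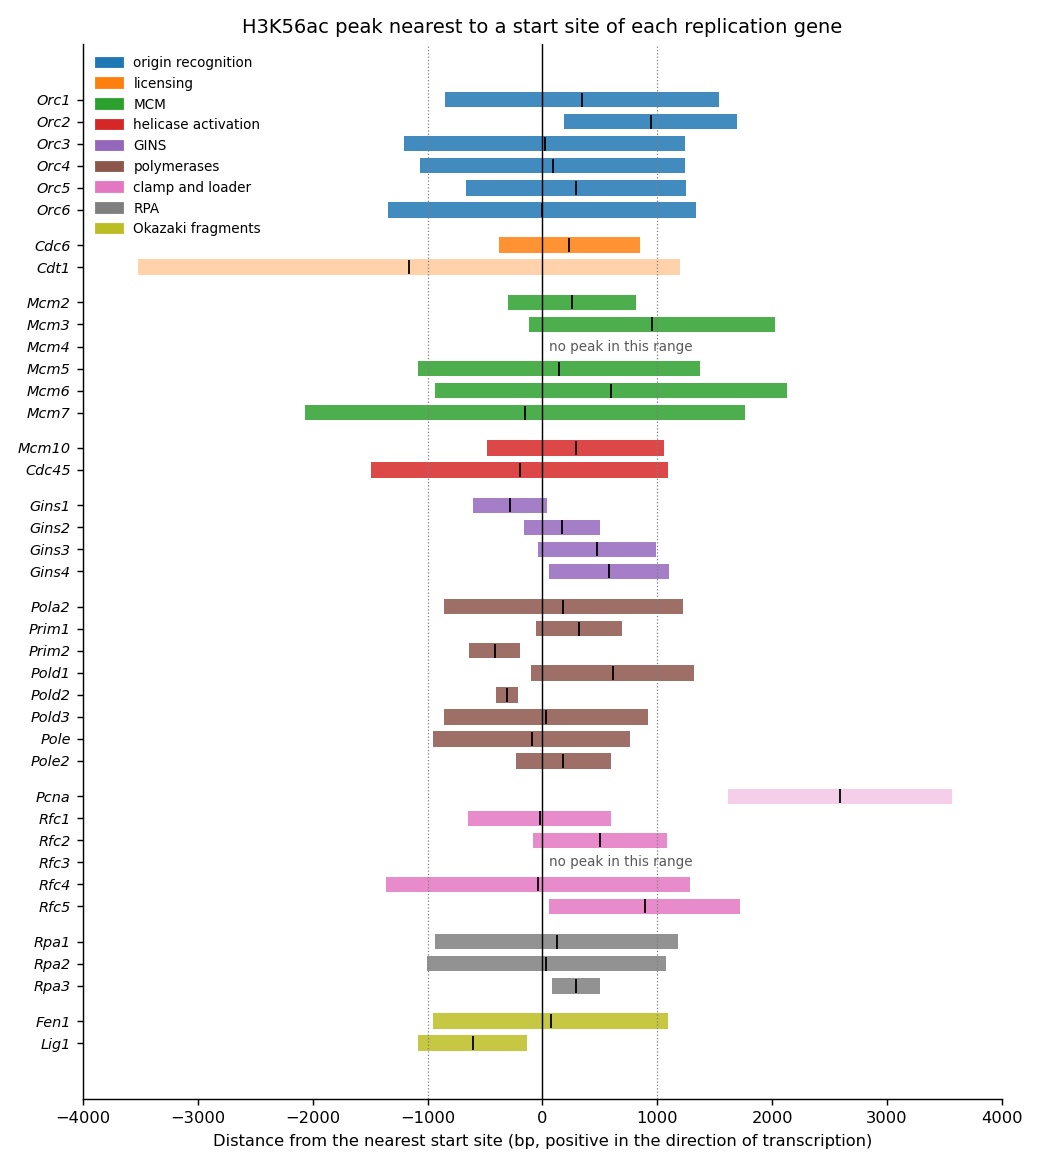
Extent of the H3K56ac peak nearest to a TSS of each replication gene (bars, coloured by complex, pale where the midpoint lay beyond 1 kb), with the midpoint as a black tick, against the distance from that TSS in bp (x axis, positive in the direction of transcription). Most bars cross the TSS at 0, the bars of *Pold2*, *Prim2* and *Lig1* end upstream of it, and *Mcm4* and *Rfc3* have no peak in the range shown.

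A promoter peak was missing for *Cdt1*, *Mcm4*, *Pcna* and *Rfc3*, all of which had a CpG-rich promoter with ratios of 0.851, 0.867, 0.900 and 0.658. For *Cdt1*, which loads the MCM ring together with CDC6, this came from the midpoint rule. Its 4724-bp peak (chr8:122564489-122569212) covered the TSS and ranked 164 by width, wider than every promoter peak of the members, but extended 3526 bp upstream and 1197 bp downstream, which put the midpoint 1165 bp upstream. *Cdt1* was therefore just outside the limit, and *Mcm3* at 954 bp and *Orc2* at 941 bp were just inside. For *Pcna*, the gene of the sliding clamp, the nearest peak (chr2:132246604-132248550) lay beyond the 3′ end of the gene, at the start of the neighbouring gene *Tmem230*. Its nearest base was 1620 bp from a TSS of a short *Pcna* transcript, and its midpoint was 5737 bp from the start of the principal transcript. The nearest midpoints to *Mcm4* and *Rfc3* were 41025 and 275258 bp away. *Mcm4* shares its promoter with *Prkdc*, a DNA repair kinase gene that starts 466 bp upstream on the other strand, and the nearest midpoint to *Prkdc* was 43585 bp away. Without read counts, a region with little H3K56ac cannot be told apart from a region with too few placeable reads.

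In width and position, the promoter peaks of the members lay near those of other genes. Their median width was 1663 bp (quartiles 1034 and 2232 bp, n = 35 genes), compared with 1274 bp (quartiles 738 and 2108 bp) for the 7430 genes with a promoter peak and 1388 bp for those with a CpG-rich promoter. Of the 35 peaks, 21 were wider than the median of all genes, 11 were wider than the upper quartile and 5 were narrower than the lower quartile. The midpoint lay downstream of the nearest TSS for 25 members and upstream for 10, a share of 71.4% against 61.2% for all genes with a promoter peak. The median offset was 171 bp downstream (quartiles -13.5 and 333 bp), compared with 86.0 bp (quartiles -126 and 377 bp) for all genes, so the quartile ranges overlapped widely. The midpoint fell in an intron for 17 members, in a non-coding part of an exon for 8, in a coding exon for 3, namely *Orc3*, *Mcm5* and *Gins2*, and upstream of the gene for 7. These locations were not counted over all genes with a promoter peak, so they are not read as a trait of replication genes.

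**Figure D3:**
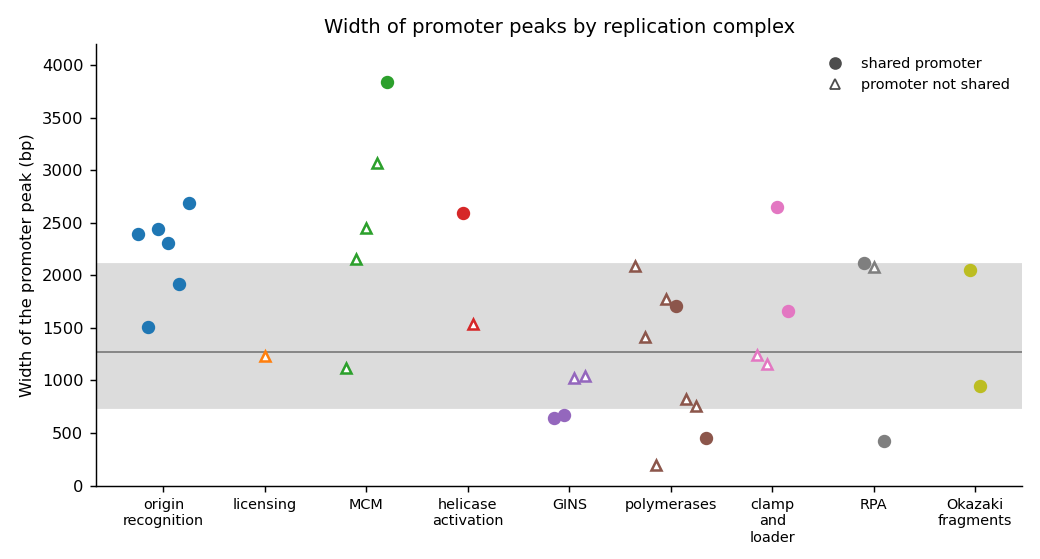
Width of the promoter peak in bp (y axis) for each of the 35 replication genes that had one, by complex (x axis), with filled circles for shared promoters and open triangles for others. Against the median (grey line, 1274 bp) and quartiles (band) of all protein-coding genes with a promoter peak, the origin recognition genes lie above the line and the GINS genes below it.

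Shared promoters were frequent among the replication genes. A divergent neighbour started within 1 kb upstream of 20 of 39 members, compared with 18.3% of all protein-coding genes, and of 16 of the 31 with a CpG-rich promoter, compared with 29.4% of that class. The start of the closest neighbour was 3 to 659 bp away, with a median of 89.5 bp. The neighbour was a protein-coding gene for 13 members (11.0% of all genes) and a non-coding or unclassified transcript for the other 7. All 6 origin recognition genes had such a neighbour, namely *Prpf38a* at *Orc1*, the lincRNA *Gm15834* at *Orc2*, *Rars2* at *Orc3*, *Mbd5* at *Orc4*, the lincRNA *6030443J06Rik* at *Orc5* and *Vps35* at *Orc6*. The start sites of *Orc3* and *Rars2*, a mitochondrial arginyl-tRNA synthetase gene, were 13 bp apart. Among the others were *Ap4m1* at *Mcm7*, *Ufd1* at *Cdc45*, *Abhd12* at *Gins1*, *Pxmp2* at *Pole*, *Smyd4* at *Rpa1*, *Umad1* at *Rpa3*, *Tmem258* at *Fen1* and *Zswim9* at *Lig1*. *Pcna*, with the antisense transcript *AV099323* starting 43 bp away, and *Mcm4* were the 2 members with a neighbour and no promoter peak.

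For 16 of the 18 members that had both a divergent neighbour and a promoter peak, the same peak was also the promoter peak of a neighbour, so it cannot be assigned to either gene. The exceptions were *Orc2* and *Rfc5*, whose lincRNA neighbours started 1164 and 1006 bp from the nearest midpoint. The closest neighbours started at most 659 bp away, so a midpoint within 1 kb of a member is often within 1 kb of its neighbour. The same share over all genes with a shared promoter was not computed, so the count is not read as a trait of replication genes. Peaks at shared promoters had a median width of 1981 bp and a median offset of 45.0 bp (n = 18 members), whereas peaks at the other promoters had 1247 bp and 257 bp (n = 17). In all CpG-rich promoters with a peak the corresponding medians were 1830 bp and -20.0 bp for 2126 shared ones, and 1137 bp and 165 bp for 3680 others. The members thus differed between shared and other promoters in the same direction as the whole class did. Leaving out the shared promoters, 17 of 19 members had a promoter peak (89.5%), compared with 27.4% of all genes with no such neighbour.

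Motifs in the promoter sequence were not used to choose the genes. In windows from 250 bases before to 50 bases after the RefSeq start (GRCm38.p6), the E2F motif was searched in the spellings TTTCCCGC, TTTCGCGC, TTTGCCGC and TTTGGCGC on both strands. Of the 32 members with a window, 13 had at least 1 match (40.6%), compared with 2.96% of 16538 protein-coding genes and 4.90% of the 7861 with a CpG-rich promoter. No window was available for *Mcm4*, *Gins1*, *Gins2*, *Gins4*, *Prim2*, *Pole* and *Rfc2*. Matches were found for *Mcm3*, *Mcm5*, *Mcm6* and *Mcm7* among 5 MCM windows, for both loading factors *Cdc6* and *Cdt1*, for *Orc1* and *Orc3* among 6 origin recognition windows, and for *Pold1*, *Pold3* and *Pole2* among 6 of the polymerases. *Gins3* and *Rfc3* had matches too, and none was found in the windows of *Mcm10*, *Cdc45*, the 3 RPA genes, *Fen1* or *Lig1*. In all there were 19 matches, the first base of each lying between -165 and +40 from the start. A match of letters is a description and not evidence of binding.

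The sites are printed because the E2F match was, of the 4 motifs searched, the one whose share in the members lay farthest above that of all windows, although 19 of the 32 members lacked it. Each line gives 30 bases of the gene strand, 5′ to 3′, with the letters of the E2F match, on either strand, in capitals.
Orc1 (chr4:108579416-108579445, plus strand): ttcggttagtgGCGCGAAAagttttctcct
Orc3 (chr4:34614965-34614994, minus strand): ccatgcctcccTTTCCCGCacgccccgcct
Cdc6 (chr11:98908002-98908031, plus strand): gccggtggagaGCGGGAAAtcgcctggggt
Cdt1 (chr8:122568035-122568064, plus strand): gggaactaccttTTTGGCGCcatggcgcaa
Mcm3 (chr1:20820266-20820295, minus strand): tgGCGGGAAAacttgggaagtTTTGGCGCc
Mcm5 (chr8:75109347-75109376, plus strand): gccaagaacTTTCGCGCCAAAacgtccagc
Mcm6 (chr1:128359795-128359824, minus strand): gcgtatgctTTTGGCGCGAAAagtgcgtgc
Mcm6 (chr1:128359734-128359763, minus strand): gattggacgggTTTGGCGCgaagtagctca
Mcm7 (chr5:138172030-138172059, minus strand): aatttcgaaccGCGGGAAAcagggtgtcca
Mcm7 (chr5:138171849-138171878, minus strand): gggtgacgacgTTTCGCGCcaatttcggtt
Gins3 (chr8:95633507-95633536, plus strand): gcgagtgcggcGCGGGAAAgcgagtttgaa
Pold1 (chr7:44548766-44548795, minus strand): cacggcggcgtatcttgtgGCGGGAAAagc
Pold3 (chr7:100121467-100121496, minus strand): gagcgaagctgTTTCCCGCcggcgggagct
Pole2 (chr12:69228162-69228191, minus strand): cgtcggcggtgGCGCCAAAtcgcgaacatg
Rfc3 (chr5:151651195-151651224, minus strand): gcacgcTTTCGCGCtcGCGGGAAAactcta
At *Mcm5* and *Mcm6*, matches on opposite strands overlapped in a run of 12 bases, and *Mcm3* and *Rfc3* each held a pair within 30 bases. In *Mcm7* the matches lay on either side of the start. The matches of *Cdt1*, *Mcm3*, *Pold1*, *Pold3* and *Pole2* lay downstream of the start. The matches of *Rfc3* lay in no peak and the others in the peak of their gene.

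Members with a match and members without one both carried peaks. A promoter peak was present for 11 of 13 members with an E2F match, where *Cdt1* and *Rfc3* were the exceptions, and for 18 of 19 without, where *Pcna* was the exception. Among CpG-rich windows alone, 10 of 12 members with a match and 13 of 14 without had a promoter peak. Over all genes with such a window, the shares were 67.3% of 385 with a match and 58.4% of 7476 without. Median widths were 2151 bp for the 11 members with a match and 1790 bp for the 18 without. The CCAAT box, bound by NF-Y, was found in 19 of 32 members, compared with 38.6% of all windows and 37.9% of CpG-rich ones. The GC box GGGCGG, bound by SP1, was found in 23 members (71.9%), compared with 48.5% of all windows and 71.9% of CpG-rich ones, so the members were level with their promoter class. The TATA box TATAAA was found in *Cdc45* alone, compared with 12.9% of all windows and 5.80% of CpG-rich ones. All motifs were searched on both strands, and no E2F spelling contains another of these motifs.

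**Figure D4:**
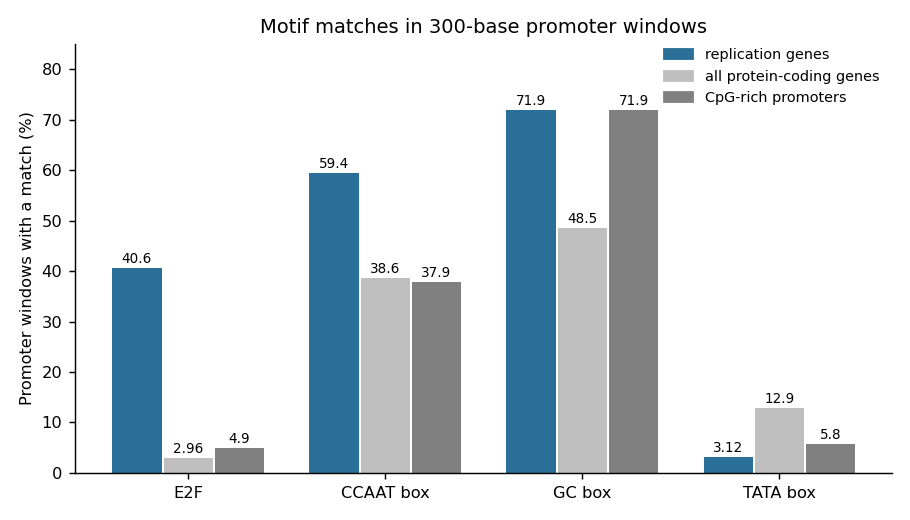
Share of promoter windows of 300 bases with a match (y axis, percent) for replication genes (blue, 32 windows), all protein-coding genes (light grey) and CpG-rich promoters (dark grey). For E2F the blue bar stands at 40.6% beside 2.96% and 4.90%, whereas for the GC box the blue and dark bars are level.

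Longer stretches upstream of the start are shown for *Mcm6*, which held the most E2F matches, for *Pola2*, *Rfc4*, *Rpa1* and *Orc6*, which had the widest peak of their group, and for *Cdt1*, *Pcna* and *Rfc3*, which had no promoter peak. The first was chosen after its matches were seen. Only bases outside annotated exons are printed, 5′ to 3′ on the gene strand, with E2F, CCAAT and GC box matches in capitals. For *Mcm7*, the widest of its group, no stretch of 30 bases was free of exons, and for *Gins4* no window was available.
Mcm6 (chr1:128359706-128359955, minus strand): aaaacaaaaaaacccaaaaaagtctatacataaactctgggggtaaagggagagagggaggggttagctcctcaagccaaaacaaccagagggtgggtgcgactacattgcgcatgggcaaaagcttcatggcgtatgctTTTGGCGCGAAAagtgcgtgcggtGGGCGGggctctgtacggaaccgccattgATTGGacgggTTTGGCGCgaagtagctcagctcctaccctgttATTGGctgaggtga
Orc6 (chr8:85299382-85299454, plus strand): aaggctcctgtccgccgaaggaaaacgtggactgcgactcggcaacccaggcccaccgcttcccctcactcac
Pola2 (chr19:5964207-5964456, minus strand): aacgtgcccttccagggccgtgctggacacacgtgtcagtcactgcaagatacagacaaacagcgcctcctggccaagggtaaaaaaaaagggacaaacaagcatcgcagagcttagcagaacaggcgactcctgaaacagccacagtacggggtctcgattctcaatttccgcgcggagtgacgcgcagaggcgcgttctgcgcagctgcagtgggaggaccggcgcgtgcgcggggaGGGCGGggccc
Rfc4 (chr16:23127738-23127792, minus strand): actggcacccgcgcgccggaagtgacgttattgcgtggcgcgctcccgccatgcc
Rpa1 (chr11:75348384-75348432, minus strand): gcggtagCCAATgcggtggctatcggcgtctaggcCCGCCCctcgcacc
Cdt1 (chr8:122567765-122568014, plus strand): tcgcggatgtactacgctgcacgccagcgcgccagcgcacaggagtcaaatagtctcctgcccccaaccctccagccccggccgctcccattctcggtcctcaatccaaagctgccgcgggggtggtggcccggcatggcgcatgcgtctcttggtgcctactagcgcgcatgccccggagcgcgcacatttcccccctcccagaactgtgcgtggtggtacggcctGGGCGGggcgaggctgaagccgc
Pcna (chr2:132253315-132253356, minus strand): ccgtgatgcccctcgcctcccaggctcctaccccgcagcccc
Rfc3 (chr5:151651243-151651458, minus strand): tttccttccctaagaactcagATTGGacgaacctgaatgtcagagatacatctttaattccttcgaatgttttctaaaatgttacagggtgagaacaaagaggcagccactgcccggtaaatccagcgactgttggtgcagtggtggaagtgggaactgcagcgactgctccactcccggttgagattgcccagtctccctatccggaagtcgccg
The *Mcm6* stretch held 3 E2F matches, 2 CCAAT boxes read on the other strand and 1 GC box, all inside the 3072-bp peak. The *Pola2* and *Cdt1* stretches each held a GC box close to the start and no E2F match. The *Rfc3* stretch held 1 CCAAT box and lay in no peak, although the E2F matches of this gene follow just downstream of it.

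Promoter peaks were also frequent at replication genes outside the list. Of 28 further genes for initiation, fork protection, primer removal and topoisomerases, 25 had a promoter peak. The share was 33.9% for all genes and 57.6% for those with a CpG-rich promoter, the class of most of the 28. The peaks had a median width of 1687 bp and a range from 320 to 3272 bp. The origin firing kinase genes *Cdc7* and *Dbf4* had peaks of 1751 and 3003 bp with midpoints 18 bp downstream and 6 bp upstream of a TSS. *Gmnn*, the inhibitor of CDT1, had a peak of 1463 bp, and *Pola1*, the catalytic partner of *Pola2*, one of 1650 bp. At the fork protection genes *Timeless*, *Tipin* and *Clspn* the widths were 1687, 1556 and 850 bp. The *Top1* midpoint, 997 bp downstream of a TSS, was just inside the limit, and its 320-bp peak was the narrowest. *Pold4*, *Pole4* and *Donson* had no peak base within 1 kb, with nearest midpoints 24928, 16082 and 33971 bp away. At the 5′ end of the gene, *Pold4* and *Pole4* were CpG-poor with ratios of 0.325 and 0.217, whereas *Donson*, a replisome gene, had a ratio of 0.937. Ratios at the starts of their principal transcripts are not given here.

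Further H3K56ac peaks near the members were counted without a background over all genes. Apart from the peak nearest to a TSS of each gene, 17 further ones within 10 kb of the gene were found beside 13 members, and 26 members had none. Of the 17, 10 were centred less than 1 kb from the start of another protein-coding gene, such as *Naca* beside *Prim1* and *Eif4a2* beside *Rfc4*. Only 3 overlapped the member itself, a 331-bp intronic peak in *Orc3* (chr4:34582720-34583050), the 505-bp peak in *Gins1* and a 755-bp intronic peak in *Lig1* (chr7:13296970-13297724). *Cdt1* had a further peak of 3963 bp (chr8:122555933-122559895) upstream, with no start of another protein-coding gene within 1 kb of the midpoint.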

How the data were processed

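Sample titles gave each library's group and replicate number. Upstream, the authors used Trim Galore for trimming, bowtie for alignment to mm10 (only reads with 1 reportable location), Picard for duplicates and MACS2 for peaks, then dropped blacklisted regions and merged what overlapped. The deposited file held positions, and its deposited score was 0 throughout. It holds no read counts, so the depth behind a peak is unknown. Starts were converted to 1-based positions, and no peak ran past the end of a GRCm38 chromosome.

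TSS were the starts of all GENCODE M21 transcripts of protein-coding genes, and a midpoint was the rounded-down mean of the first and last base. Positive offsets point in the direction of transcription. RefSeq promoter windows were matched by symbol, strand and chromosome, and the window nearest to the start of the principal transcript (by APPRIS tag, then support level) was kept for each gene. All 16538 equalled the GRCm38 sequence. Members and lists were chosen with earlier results of these data known. The genes named were all members, their divergent neighbours and those of the list of 28 others without a promoter peak, plus examples chosen after their values were seen. Python 3.11.15, numpy 2.4.6, pandas 2.3.3 and matplotlib 3.10.9 were used, and the steps were checked on simulated data.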

Additional observations from a re-analysis of the deposited data

How the results depend on the processing

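The number of members with a promoter peak was recomputed under 9 alternatives, and each gave a share above its background. It was 27 at a limit of 500 bp (25.8% of all genes), 37 at 3 kb (36.9%) and 36 with any base within 1 kb (35.7%). It was 30 with the 5′ end of the gene alone (29.8%), 33 with basic transcripts (32.3%) and 34 with protein-coding transcripts (32.9%). Peaks of at least 500 bp gave 32 (30.9%). The start of the principal transcript alone, an alternative chosen after seeing the data, gave 32 (30.4%). *Orc2*, *Mcm3* and *Mcm7* then lost their promoter peak, with midpoints 1125, 1006 and 1003 bp from that start. The median width ranged from 1247 bp without shared promoters to 1776 bp at 500 bp, and the median offset from 89.0 bp at 500 bp to 306 bp with the 5′ end of the gene. The offset thus moved by over 1.5 times from its 171 bp in both directions, while it stayed downstream of the TSS. Counting protein-coding neighbours alone moved the number of shared promoters from 20 to 13, because neighbours of other types no longer counted. With the 5′ ends of the genes alone, the number of shared promoters was 14 (10.8% of all genes). E2F matches were found in 15 members within 500 bases on either side of the start (7.59% of all genes) and in 12 with 2 spellings (2.18%).

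No paired analysis was possible because 1 merged peak set covers both conditions, although Scramble and *Sirt6* KD libraries carry the same replicate numbers. Leaving out a replicate and a stricter peak score were not run, since the set has neither libraries nor scores that differ. The paper lists the number of reads of each library, but the depth behind each merged peak is unknown.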
